A study of Mus musculus with 33 samples.

Results

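The transcription factors TFE3, TFEB and MITF and 7 genes of the circuit that holds them at the lysosome or answers to them were followed in mouse liver. The 10 genes were Tfe3, Tfeb, Mitf, Flcn, Fnip1, Fnip2, Rragc, Rragd, Gpnmb and Sqstm1, out of 25988 genes in the count table. They were matched by gene name in the deposited normalized table, or by Ensembl identifier in the counts for Rragd, which that table does not hold. The genes were chosen by their place in this circuit with the fold changes and levels measured in these same libraries already known, so the values below describe these libraries and are not independent evidence of a response. Liver RNA of male C57BL/6J mice was counted from the 3′ ends of transcripts in 33 libraries. The groups combined a hairpin and a genotype, with 9 libraries of shChREBP/L-G6pc-/- mice, 8 of shChREBP/L-G6pc+/+ mice, 8 of shSCR/L-G6pc-/- mice and 8 of shSCR/L-G6pc+/+ mice. L-G6pc-/- mice carried a floxed G6pc gene and a tamoxifen-dependent Cre recombinase under the serum albumin promoter, so the deletion is directed to hepatocytes, and L-G6pc+/+ mice were floxed littermates without Cre. G6pc encodes the catalytic subunit of glucose-6-phosphatase, whose loss in people causes glycogen storage disease type Ia. All mice of all groups received tamoxifen and an adeno-associated virus that expressed a short hairpin RNA, either shChREBP, directed against Mlxipl, the gene of the glucose-sensitive factor ChREBP, or the scrambled control shSCR. The mice were 13 to 18 weeks old at infection, were not fasted and, per the study's methods, were sampled 10 days after the last tamoxifen dose. The labels do not say that each library is a separate mouse, so n counts libraries and the p-values measure the spread between them.

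In nutrient-replete cells the kinase complex mTORC1 phosphorylates TFE3 and TFEB on the lysosomal surface, and the phosphorylated factors are kept in the cytoplasm by 14-3-3 proteins. The small GTPases RagC and RagD bring the factors to the lysosome, and folliculin, encoded by Flcn, together with its partners FNIP1 and FNIP2 switches RagC and RagD into the form that does so. When nutrients are scarce or lysosomes are damaged, the factors enter the nucleus and bind E-box sequences in genes of lysosomes and autophagy, among which Flcn, Fnip2, Rragd, Gpnmb and Sqstm1 are known targets in other cells. In the liver TFEB and TFE3 are known for the fasting response, autophagy and lipid breakdown. The libraries measure transcripts, and the location and phosphorylation of the proteins were not measured.

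The promoters of Fnip2, Fnip1 and Rragc are shown first, because among the 10 genes only these held an E-box of the forms searched. RefSeq promoter windows of 300 bases on GRCm38.p6, around each annotated start, were found for all 10 genes, 15 windows in total. The patterns searched on both strands were the E-box CACGTG, its extended form CACGTGA, the full palindromic lysosomal (CLEAR) element, a relaxed CLEAR element in which the central pair of bases is free, the antioxidant response core TGACNNNGC read by NRF2, and a carbohydrate response element of paired E-boxes, read by ChREBP. CACGTGA, the full CLEAR element and the paired E-boxes each contain CACGTG, whereas the relaxed element need not. In Fnip2 the relaxed element was the only E-box form found. The relaxed element was chosen after the sequences had been read. Capitals mark CACGTGA, the relaxed CLEAR element or TGACNNNGC on either strand.
Fnip2, chr3:79567630-79567929, minus strand: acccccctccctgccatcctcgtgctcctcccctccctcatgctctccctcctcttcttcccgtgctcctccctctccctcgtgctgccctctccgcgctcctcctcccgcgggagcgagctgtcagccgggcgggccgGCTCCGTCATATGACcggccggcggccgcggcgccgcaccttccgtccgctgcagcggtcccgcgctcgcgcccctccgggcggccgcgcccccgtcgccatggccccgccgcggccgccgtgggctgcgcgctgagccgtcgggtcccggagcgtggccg
Fnip1, chr11:54437929-54438228, plus strand: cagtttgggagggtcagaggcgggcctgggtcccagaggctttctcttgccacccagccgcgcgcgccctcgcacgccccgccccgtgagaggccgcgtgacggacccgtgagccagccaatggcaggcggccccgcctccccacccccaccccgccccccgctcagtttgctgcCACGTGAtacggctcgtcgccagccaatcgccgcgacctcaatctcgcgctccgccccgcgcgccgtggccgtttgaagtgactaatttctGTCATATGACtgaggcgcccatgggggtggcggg
Rragc, chr4:123917183-123917482, plus strand: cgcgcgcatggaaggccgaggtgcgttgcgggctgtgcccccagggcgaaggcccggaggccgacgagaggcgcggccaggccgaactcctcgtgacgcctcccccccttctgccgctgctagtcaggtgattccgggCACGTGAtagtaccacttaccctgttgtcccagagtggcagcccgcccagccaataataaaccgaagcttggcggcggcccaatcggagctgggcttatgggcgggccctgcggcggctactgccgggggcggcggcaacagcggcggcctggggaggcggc
Both folliculin partners held the same 10 letters, GTCATATGAC, starting 106 bases before the annotated start in Fnip2 and at base 17 after it in Fnip1. The relaxed element occurred in 1.02% of 32851 mouse promoter windows. CACGTGA stood 75 bases before the start of Fnip1 and 112 bases before that of Rragc, and 3.77% of all windows held it. The match to TGACNNNGC in Fnip2 shares 4 bases with GTCATATGAC, and this pattern occurred in 12.4% of windows and, among these genes, otherwise only in 1 of the 3 Mitf windows. CACGTG itself was found in Fnip1 and Rragc and in 7.15% of windows. The full CLEAR element was in none of the windows of the 10 genes and in 0.326% of all windows, and the paired E-boxes, searched with no mismatch, were in 0 of 32851 windows. A match describes letters in these windows and is not a measured binding site.

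Library totals lay between 1497843 and 3546852 counts with a median of 2141043. Tags of G6pc, the targeted gene, were present in every library, at 158 to 752 CPM (a gene's tags relative to the scaled total of its library) in shSCR/L-G6pc-/- livers against 78.7 to 364 CPM in shSCR/L-G6pc+/+ livers. Where these 3′ tags lie relative to the deleted part was not examined, so they do not check the deletion, and the genotype is taken from the labels. Mlxipl fell with shChREBP, by 0.57 on the log2 scale in L-G6pc-/- livers (adjusted p = 0.00417) and by 0.55 in L-G6pc+/+ livers (adjusted p = 0.0129). Without s29, s30, s32 and s33, described next, the fall in L-G6pc-/- livers was 0.27 and did not pass (log2 -0.27, adjusted p = 0.214), and that in L-G6pc+/+ livers was again 0.55 (adjusted p = 0.000225). Pklr, the pyruvate kinase gene known to answer to ChREBP, was 1.35 higher in shSCR/L-G6pc-/- than in shSCR/L-G6pc+/+ livers (adjusted p = 8.68e-07). Of 9 libraries with both changes (shChREBP/L-G6pc-/-), those named s29, s30, s32 and s33 stood apart, with scores of 26.8 to 35.6 on the first principal component of all genes, against -1.47 to 7.70 for the other 5 and at most 21.2 for any library of the other groups. Hepatocyte markers were present in every library and their summed level was 14027 to 23191 CPM in shChREBP/L-G6pc-/- livers, against 27838 to 31597 CPM in shSCR/L-G6pc+/+ livers. The sum was 19567 to 25770 CPM in shSCR/L-G6pc-/- livers and 21470 to 33375 CPM in shChREBP/L-G6pc+/+ livers. Between the first 2 groups named, 3 of the 7 markers passed the test described below as lower and 0 as higher, where 6.37% of all genes passed as lower. Without s29, s30, s32 and s33, 1 of the 7 passed as lower and 0 as higher. With G6pc deficiency under shSCR 1 of the 7 passed as lower, where 1.03% of all genes did. In whole liver, fewer cells of a type and less RNA per cell cannot be told apart.

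Levels are CPM scaled with TMM factors, and a gene was called changed at an adjusted p under 0.05 in edgeR's quasi-likelihood test, with Benjamini-Hochberg adjustment over the 10179 genes that passed the low-count filter. Of the 10 genes 9 passed it, and Rragd, with 1 to 11 counts a library, did not. With G6pc deficiency under shSCR, 1 of the 9 was called, Fnip2, which was higher, where 2.20% of all genes tested were called higher. With shChREBP in L-G6pc-/- livers 1 was called, Tfe3, which was higher, against 3.33% of all genes. With shChREBP in L-G6pc+/+ livers edgeR called 0, as did DESeq2 and limma-voom, with 2 genes at an unadjusted p under 0.05, where 5.39% of all genes were called. G6pc deficiency under shChREBP gave 2 calls, Mitf and Sqstm1, both higher, against 6.14% of all genes. Livers with both changes, set against shSCR/L-G6pc+/+ livers, gave 3 calls, Tfe3, Mitf and Sqstm1, all higher, against 6.87% of all genes. The difference between the shChREBP effects of the genotypes gave 0 calls by edgeR, DESeq2 and limma-voom, with 1 gene at an unadjusted p under 0.05, where 0.0786% of all genes were called. Nothing is read from these counts, since the genes were chosen with results of the same contrasts known. The comparisons share groups and are not independent of each other.

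**Figure D1:**
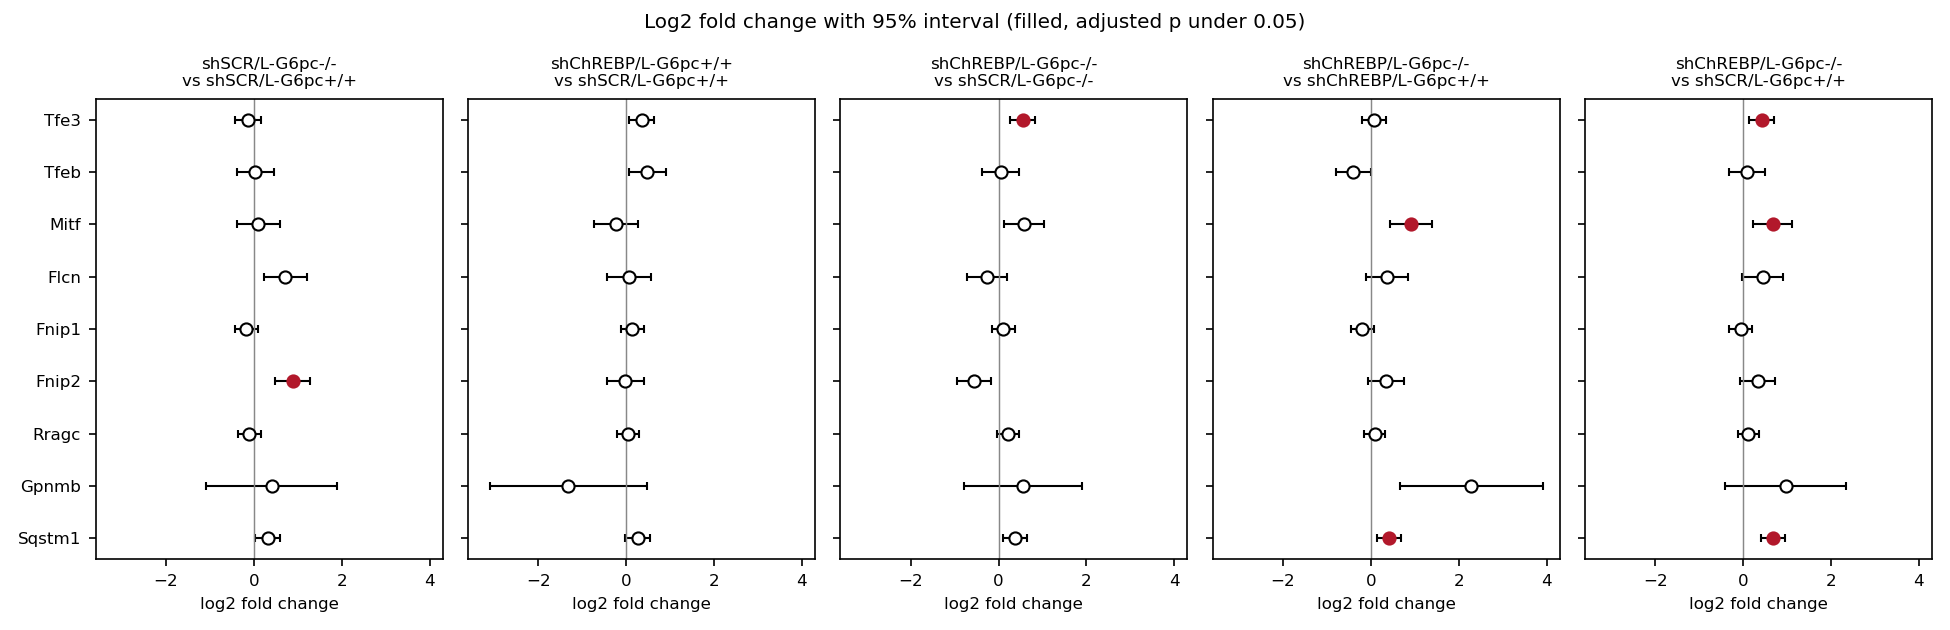
Log2 fold change (horizontal axis) of the 9 genes tested in 5 comparisons, each panel naming the group over its reference. Circles are estimates, bars are 95% intervals, and filled circles passed the threshold. Fnip2 alone is filled in the first panel, at 0.88, and the widest intervals are those of Gpnmb.

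Tfe3, on chromosome X from 7762560 to 7775202 (GRCm38), encodes the transcription factor TFE3 of the MiT/TFE family. It had a lowest, median and highest level of 39.3, 44.7 and 70.1 CPM in shChREBP/L-G6pc-/- livers, against 19.3, 36.8 and 42.1 CPM in shSCR/L-G6pc-/- livers. In livers with G6pc it had 43.6, 48.2 and 52.5 CPM under shChREBP and 27.99, 36.7 and 53.6 CPM under shSCR. Thus 7 of 9 shChREBP/L-G6pc-/- libraries lay above every shSCR/L-G6pc-/- library, and in L-G6pc+/+ livers the 8 shChREBP libraries lay above 7 of the 8 shSCR libraries and below the eighth, s1. The log2 fold change with shChREBP was 0.55 in L-G6pc-/- livers (SE 0.14, edgeR adjusted p = 0.00997) and 0.36 in L-G6pc+/+ livers (SE 0.14, adjusted p = 0.123). Without s1 the second was 0.45 (adjusted p = 0.0459). The difference between these 2 effects was 0.19 (95% interval -0.20 to 0.59, adjusted p = 0.74). Without s29, s30, s32 and s33 the first became 0.32 (adjusted p = 0.357), and those 4 libraries held 46.1 to 70.1 CPM against 39.3 to 44.7 CPM in the other 5. G6pc deficiency left Tfe3 with a log2 fold change of -0.13 under shSCR (95% interval -0.42 to 0.16, adjusted p = 0.745) and 0.06 under shChREBP (95% interval -0.21 to 0.34, adjusted p = 0.818). By mean the order was 50.0 ± 10.9 CPM (SD, n = 9) in shChREBP/L-G6pc-/-, 47.9 ± 3.15 in shChREBP/L-G6pc+/+, 37.2 ± 7.52 in shSCR/L-G6pc+/+ and 33.9 ± 8.90 in shSCR/L-G6pc-/- livers (n = 8 each), and no neighbours in it differed by the test. shChREBP/L-G6pc+/+ and shSCR/L-G6pc-/- livers, which differ in both hairpin and genotype, did not overlap in Tfe3 (log2 fold change 0.49, adjusted p = 0.0178). Fnip2 was called lower in the former of this pair (log2 -0.90, adjusted p = 0.0022). The shares of all genes called or not overlapping in this pair were not counted, so nothing is read from it. Against shSCR/L-G6pc+/+ livers, those with both changes were 0.42 higher (adjusted p = 0.0335). That call was lost without any of s2, s3, s6, s7, s8, s30, s32 or s33, with adjusted p up to 0.0865, and without the low-count filter (0.0659), and the value was 0.19 (adjusted p = 0.585) without the 4 libraries together.

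Tfeb, on chromosome 17 from 47737030 to 47792419, encodes the family member whose control by mTORC1 is best studied. Its levels were 6.25, 12.5 and 18.8 CPM in shChREBP/L-G6pc-/- livers and 8.66, 11.1 and 20.3 CPM in shSCR/L-G6pc-/- livers (lowest, median, highest). They were 12.7, 18.0 and 21.6 CPM in shChREBP/L-G6pc+/+ livers, against 7.92, 11.5 and 22.3 CPM in shSCR/L-G6pc+/+ livers. The groups overlapped in each comparison, and no comparison passed the test with all libraries. The log2 fold change with shChREBP in L-G6pc+/+ livers was 0.48 (SE 0.21, adjusted p = 0.157), and in L-G6pc-/- livers 0.05 (SE 0.21, adjusted p = 0.922), with a difference between them of -0.43 (95% interval -1.02 to 0.16, adjusted p = 0.578). G6pc deficiency under shChREBP gave -0.40 (SE 0.20, adjusted p = 0.203). Without s29, s30, s32 and s33 this was -0.71 and passed (adjusted p = 0.0449).

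Mitf, on chromosome 6 from 97807052 to 98021349, encodes the melanocyte regulator of the family, which other tissues express from other promoters. It was counted thinly, with 7 to 40 tags a library. Its levels were 5.83, 8.55 and 15.3 CPM in shChREBP/L-G6pc-/- livers, against 3.31, 5.19 and 8.05 CPM in shChREBP/L-G6pc+/+ livers. They were 4.40, 5.83 and 13.4 CPM in shSCR/L-G6pc-/- livers and 3.72, 5.81 and 9.46 CPM in shSCR/L-G6pc+/+ livers. Of the 9 shChREBP/L-G6pc-/- libraries, 6 lay above every shChREBP/L-G6pc+/+ library and 4 above every shSCR/L-G6pc+/+ library. Mitf was 0.91 higher on the log2 scale against shChREBP/L-G6pc+/+ livers (SE 0.23, edgeR adjusted p = 0.00802) and 0.68 higher against shSCR/L-G6pc+/+ livers (SE 0.22, adjusted p = 0.0361). Without s29, s30, s32 and s33 these became 0.78 (adjusted p = 0.0551) and 0.54 (adjusted p = 0.283). The second call was also lost without any of s1, s2, s4, s6, s7, s26, s28, s30 or s32, with adjusted p up to 0.0918, and by DESeq2 (0.0515), without the low-count filter (0.0844) and on the deposited values (0.066). The difference between the shChREBP effects of the 2 genotypes was 0.81 (unadjusted p = 0.0206, adjusted p = 0.316). For shChREBP among L-G6pc-/- livers it was 0.58 (adjusted p = 0.11), 0.76 without s24 (adjusted p = 0.0309) and 0.69 with library size only (adjusted p = 0.0443). Of the melanocyte markers Pmel did not pass 0.913 CPM in any library and Tyr was at 0 in 32 of 33, whereas Dct, a melanin enzyme gene, stood at 20.2 to 78.0 CPM in shChREBP/L-G6pc-/- livers against 39.99 to 145 CPM in shSCR/L-G6pc+/+ livers.

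Fnip2, on the minus strand of chromosome 3 from 79455974 to 79567796, encodes the folliculin partner that moved with G6pc deficiency. It had 19.5, 36.1 and 47.3 CPM in shSCR/L-G6pc-/- livers, against 13.4, 18.2 and 26.9 CPM in shSCR/L-G6pc+/+ livers. Of the shSCR/L-G6pc-/- libraries 6 of 8 lay above every shSCR/L-G6pc+/+ library. Fnip2 was 1.84-fold higher (log2 0.88, SE 0.20, 95% interval 0.47 to 1.29, edgeR adjusted p = 0.00693). The call held under all 10 alternatives (0.84 to 0.88, adjusted p up to 0.0113) and with any 1 of the 16 libraries of these groups left out (0.81 to 0.97, adjusted p up to 0.0211). Under shChREBP the levels were 15.7, 20.95 and 39.7 CPM in L-G6pc-/- livers against 11.3, 19.3 and 26.98 CPM in L-G6pc+/+ livers, and the log2 fold change was 0.35 (SE 0.20, adjusted p = 0.279). Without s29, s30, s32 and s33 this was 0.59 (adjusted p = 0.0966), over 1.5 times as large. shChREBP left L-G6pc-/- livers 0.55 below shSCR/L-G6pc-/- livers without passing the test (log2 -0.55, adjusted p = 0.0696). It passed when s18, s19, s26 or s31 was left out (adjusted p 0.0331, 0.0487, 0.018 and 0.0471) and stood at -0.32 (adjusted p = 0.63) without the 4 libraries that stood apart. The difference between the genotypes in the shChREBP effect was -0.53 (95% interval -1.10 to 0.05, adjusted p = 0.469). The means were 35.1 ± 9.86 CPM (SD) in shSCR/L-G6pc-/-, 23.9 ± 8.06 in shChREBP/L-G6pc-/-, 19.1 ± 4.93 in shSCR/L-G6pc+/+ and 18.9 ± 5.75 in shChREBP/L-G6pc+/+ livers, and no neighbours in this order differed by the test. Gm17359, an annotated gene on the opposite strand, overlaps Fnip2, and whether the counting used strand is not stated.

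Flcn, on chromosome 11 from 59791408 to 59810016, encodes folliculin itself. It had 12.4, 17.2 and 24.8 CPM in shSCR/L-G6pc-/- livers, against 4.22, 9.97 and 20.4 CPM in shSCR/L-G6pc+/+ livers, and 2 of the 8 lay above that range. Its log2 fold change of 0.72 (SE 0.24, adjusted p = 0.0946) did not pass. It was 0.91 without s8 (adjusted p = 0.0206) and 0.80 by limma-voom (adjusted p = 0.0484). Under shChREBP it had 9.21, 14.9 and 21.01 CPM in L-G6pc-/- livers against 5.80, 10.4 and 19.5 CPM in L-G6pc+/+ livers (log2 fold change 0.37, adjusted p = 0.332). Fnip1, on chromosome 11 from 54438199 to 54518235, encodes the other folliculin partner, a substrate of the energy sensor AMPK. It had 58.6, 67.4 and 92.3 CPM in shSCR/L-G6pc-/- livers against 63.7, 80.3 and 102 CPM in shSCR/L-G6pc+/+ livers, with a log2 fold change of -0.17 (95% interval -0.44 to 0.09, adjusted p = 0.603). Its other groups spanned 50.6 to 94.1 CPM in shChREBP/L-G6pc-/- livers and 59.4 to 112 CPM in shChREBP/L-G6pc+/+ livers. Over the 5 comparisons its log2 fold changes stood between -0.19 and 0.13, and none passed.

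Rragc, on chromosome 4 from 123917446 to 123936997, encodes RagC, and Rragd, on the same chromosome from 32983037 to 33022180, encodes RagD, the form that MiT/TFE factors are known to induce. Rragc stood at 23.3 to 38.3 CPM in shChREBP/L-G6pc-/- livers, 21.8 to 35.4 CPM in shChREBP/L-G6pc+/+ livers, 17.5 to 38.2 CPM in shSCR/L-G6pc-/- livers and 24.3 to 33.7 CPM in shSCR/L-G6pc+/+ livers. The 4 ranges overlapped and no comparison passed, with log2 fold changes between -0.10 and 0.22. Rragd had 1 to 11 tags in shChREBP/L-G6pc-/- livers, 1 to 6 in shChREBP/L-G6pc+/+ livers and 1 to 9 in both shSCR groups, for means of 2.49 ± 1.29, 1.39 ± 1.07, 2.14 ± 1.25 and 2.26 ± 1.22 CPM (SD, in the same order, shSCR/L-G6pc-/- before shSCR/L-G6pc+/+). With no low-count filter none of its comparisons passed, and its largest log2 fold change among the 5, 0.88 between the genotypes under shChREBP, had an adjusted p of 0.347. The standard errors of these 5 values were 0.41 to 0.48 on the log2 scale.

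Sqstm1, on chromosome 11 from 50199366 to 50210827, encodes p62, which carries ubiquitin-tagged cargo into autophagosomes and binds KEAP1, the inhibitor of the antioxidant factor NRF2. It had 165, 209 and 431 CPM in shChREBP/L-G6pc-/- livers, against 124, 159.7 and 184 CPM in shSCR/L-G6pc+/+ livers. The groups with 1 change stood at 163, 187 and 240.3 CPM (shChREBP/L-G6pc+/+) and 179, 194 and 218 CPM (shSCR/L-G6pc-/-). Of the 9 livers with both changes, 8 lay above every shSCR/L-G6pc+/+ library. Sqstm1 was 0.68 higher (SE 0.14, edgeR adjusted p = 0.000693), and this held with any 1 library left out (adjusted p up to 0.00224). Without s29, s30, s32 and s33 it was 0.25 (adjusted p = 0.19). Against shChREBP/L-G6pc+/+ livers it was 0.41 higher (SE 0.14, adjusted p = 0.043), and without the 4 libraries -0.010 (adjusted p = 0.966). That call was lost without any of s10 to s16, s29, s30, s32 or s33 (adjusted p up to 0.121), and by limma-voom (0.0808), on the deposited values (0.0835) and with the compared groups only (0.104). Against shSCR/L-G6pc-/- livers the value was 0.37 (adjusted p = 0.0888), 0.42 without s28 (adjusted p = 0.0363), 0.49 with library size only (adjusted p = 0.0219) and -0.06 without the 4 (adjusted p = 0.895). The 4 libraries held 272 to 431 CPM and the other 5 165 to 209 CPM, while Mlxipl stood at 216 to 359 CPM in the 4 and 441 to 500.4 CPM in the other 5. These values are given without a test, since all genes, these included, set the component by which the libraries stood apart. G6pc deficiency under shSCR gave Sqstm1 a log2 fold change of 0.31 (adjusted p = 0.28), which passed when the 4 libraries that stood apart were left out of the shared estimate of the spread (adjusted p = 0.0424). Mrnip, on the opposite strand, overlaps Sqstm1 over 750 bases and had 292 tags in all libraries together, against 14858 for Sqstm1.

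Gpnmb, on chromosome 6 from 49036546 to 49070929, encodes a lysosomal membrane glycoprotein of macrophages and other phagocytic cells. It had 1.94, 8.39 and 25.8 CPM in shChREBP/L-G6pc-/- livers, against 0, 2.38 and 5.75 CPM in shChREBP/L-G6pc+/+ livers. It had 0, 2.98 and 45.9 CPM in shSCR/L-G6pc-/- livers and 0, 2.07 and 25.3 CPM in shSCR/L-G6pc+/+ livers. Of the livers with both changes 6 of 9 lay above every shChREBP/L-G6pc+/+ library. In shSCR/L-G6pc-/- livers a single library, s20, stood far above the rest. In shSCR/L-G6pc+/+ livers s3 (25.3 CPM) and s2 (13.7 CPM) were highest, and the next, s5, held 5.01 CPM. No comparison passed with all libraries. The log2 fold change was 2.28 against shChREBP/L-G6pc+/+ livers (SE 0.80, adjusted p = 0.0585) and 1.01 without s29, s30, s32 and s33 (adjusted p = 0.573). It passed without s26 (adjusted p = 0.0492), with library size only (0.045), without the low-count filter (0.0233) and with the compared groups only (0.0131). Against shSCR/L-G6pc-/- livers it was 0.56 (adjusted p = 0.673), and 2.35 without s20 (adjusted p = 0.0311). The library s20 had 45.9 CPM, where the other 7 of its group had at most 4.66 CPM.

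Macrophage markers were high in some libraries with high Gpnmb and in others with little. Of 10 markers of lipid-associated macrophages, a phagocyte state of fatty liver, the summed level was 152 to 328 CPM in shChREBP/L-G6pc-/- livers, 69.6 to 157 CPM in shChREBP/L-G6pc+/+ livers, 103 to 264 CPM in shSCR/L-G6pc-/- livers and 80.2 to 122 CPM in shSCR/L-G6pc+/+ livers. Of the 7 that passed the filter, 5 rose in livers with both changes against shSCR/L-G6pc+/+ livers (Lpl, Lgals3, Spp1, Mmp12 and Cd9), where 6.87% of all genes were called higher, and 1, Lpl, rose without s29, s30, s32 and s33. With G6pc deficiency 2 of the 7 rose under shSCR, against 2.20% of all genes, and 3 under shChREBP, against 6.14%. With shChREBP in L-G6pc-/- livers 0 rose, against 3.33%. The macrophage elastase gene Mmp12 had 27.8 CPM in s20 and 35.0 CPM in s30, where Gpnmb had 45.9 and 25.8 CPM. The library s3 had 25.3 CPM of Gpnmb with 12.1 CPM of Mmp12 and a marker sum of 106 CPM, inside the range of its group. Its Mmp12 and its Trem2 (2.64 CPM), another of the 10 markers, were the highest of its group. Its Cd68 stood at 3.70 CPM, beside a group median of 6.84 CPM. The library s17 had a marker sum of 248 CPM and a Kupffer sum of 2254 CPM with 0.50 CPM of Gpnmb, and s13 had the highest Kupffer sum, 2726 CPM, with 0.52 CPM of Gpnmb. In s17 Cd9 (91.2 CPM) and Cd68 (13.4 CPM) were the highest of its group, with Trem2 at 0 and Mmp12 at 1.98 CPM. Summed Kupffer cell markers were 1498 to 2358 CPM in livers with both changes and 997 to 1730 CPM in shSCR/L-G6pc+/+ livers. They were 951 to 2726 CPM in shChREBP/L-G6pc+/+ livers and 938 to 2254 CPM in shSCR/L-G6pc-/- livers. Of these 10 markers, 3 rose in livers with both changes against shSCR/L-G6pc+/+ livers, where 6.87% of all genes rose, and 0 without the 4 libraries. Against shChREBP/L-G6pc+/+ livers 0 rose. The part of macrophages in the Gpnmb values was not tested.

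**Figure D2:**
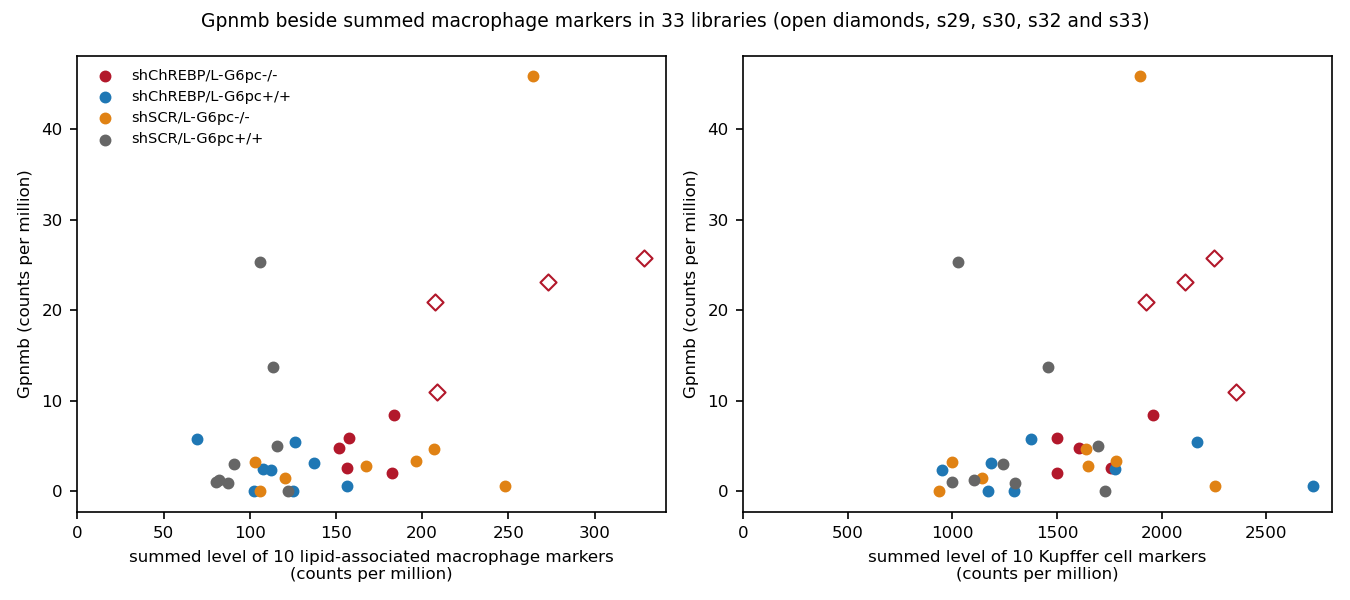
Gpnmb level (vertical axis, CPM) against the summed level of 10 lipid-associated macrophage markers (left) or 10 Kupffer cell markers (right) in 33 libraries, coloured by group, with open diamonds for s29, s30, s32 and s33. The highest Gpnmb level, 45.9 CPM in s20, goes with a lipid-associated macrophage sum of 264 CPM, while s3, at 25.3 CPM, has a sum of 106 CPM.

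The values with and without the 4 libraries that stood apart are drawn together for 8 of the genes. Of the calls made with them in livers with both changes, none of the 6 held without them, and Tfeb was called lower against shChREBP/L-G6pc+/+ livers. The call of Fnip2 with G6pc deficiency under shSCR does not involve these libraries except through the shared estimate of the spread, and it held (adjusted p = 0.0056).

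**Figure D3:**
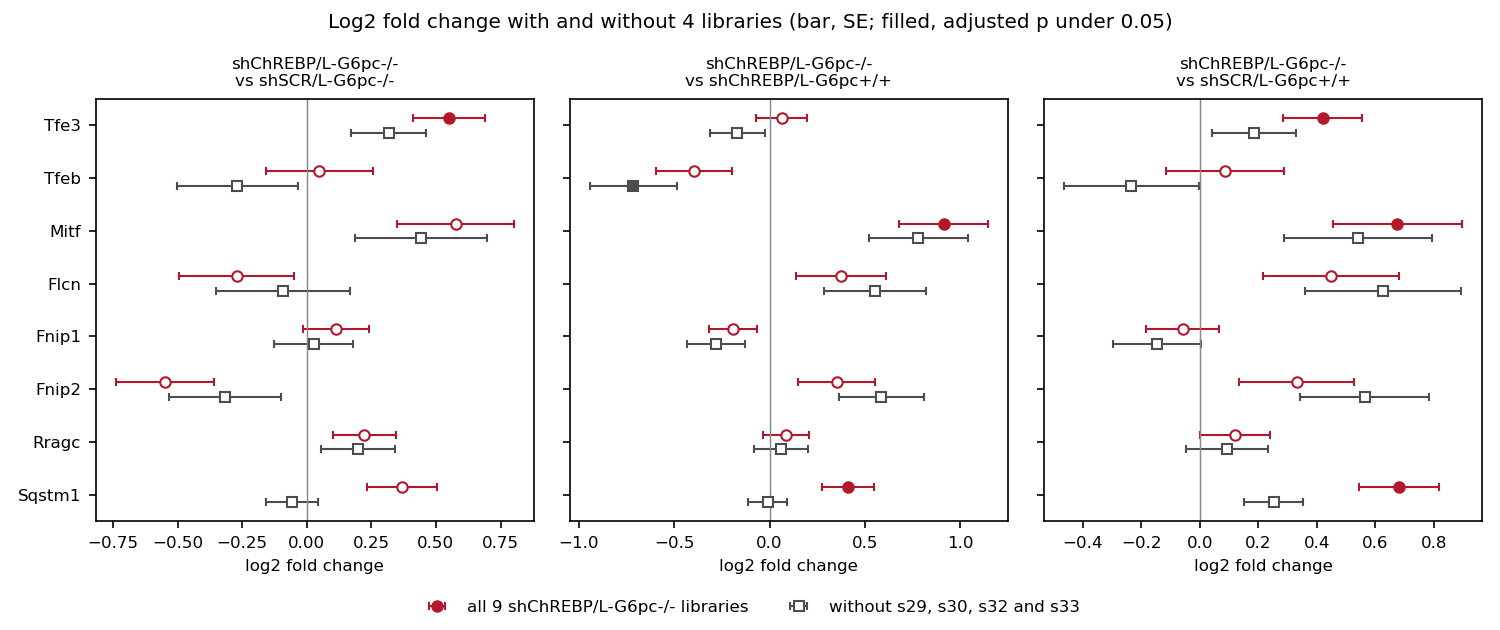
Log2 fold change (horizontal axis) of 8 genes in the 3 comparisons that involve shChREBP/L-G6pc-/- livers, with all 9 libraries (circles) and without s29, s30, s32 and s33 (squares). Bars are SE and filled symbols passed the threshold. Sqstm1 moves from 0.41 to -0.010 in the middle panel, and no circle that is filled keeps a filled square.

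The lists around the 10 genes were counted in the same fit, and each count is to be read against the share of all 10179 genes called. With G6pc deficiency under shSCR 2.20% of all genes were called higher and 1.03% lower. With shChREBP in L-G6pc-/- livers the shares were 3.33% and 4.23%, and with shChREBP in L-G6pc+/+ livers 2.16% and 3.23%. For livers with both changes they were 6.14% and 4.90% against shChREBP/L-G6pc+/+ livers and 6.87% and 6.37% against shSCR/L-G6pc+/+ livers.

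Of 21 tested genes of the Rag, Ragulator and amino acid sensing machinery, 1 (4.76%) rose in livers with both changes against shSCR/L-G6pc+/+ livers, a smaller share than the 6.87% of all genes. It was Sesn2, a leucine sensor and stress-induced inhibitor of mTORC1, with 18.6 CPM in them, 9.34 CPM in shChREBP/L-G6pc+/+ livers, 11.7 CPM in shSCR/L-G6pc-/- livers and 8.03 CPM in shSCR/L-G6pc+/+ livers. Its log2 fold change against the last was 1.21 (adjusted p = 6.5e-05), and 0.89 without the 4 libraries (adjusted p = 0.0188). Sesn2 was also 0.99 higher against shChREBP/L-G6pc+/+ livers (adjusted p = 0.00118) and 0.67 higher against shSCR/L-G6pc-/- livers (adjusted p = 0.0285). Without the 4 libraries these 2 became 0.67 (adjusted p = 0.0531) and 0.34 (adjusted p = 0.594), and neither passed. Rraga, which encodes RagA, was 0.59 lower with shChREBP in L-G6pc+/+ livers (log2 -0.59, adjusted p = 0.015), 1 of the same 21. Of 12 genes tied to the location of the factors, 2 (16.7%, against 6.14%) rose and 0 fell in livers with both changes against shChREBP/L-G6pc+/+ livers. These were the 14-3-3 genes Ywhae (log2 0.42, adjusted p = 0.00132) and Ywhag (log2 0.46, adjusted p = 0.00635), and both passed without the 4 libraries. Against shSCR/L-G6pc+/+ livers Ywhab rose and Ppp3ca fell, and both calls were lost without them. Among 17 tested genes of mTORC1, TSC and AMPK, 1, Mtor itself, was 0.51 higher with G6pc deficiency under shSCR (27.9 against 19.5 CPM, adjusted p = 0.0342). Of these 17, 2 fell with shChREBP in L-G6pc-/- livers, against 4.23% of all genes, namely Deptor, an mTOR inhibitor (log2 -0.40, adjusted p = 0.0154), and Prkag2, an AMPK subunit (log2 -0.59, adjusted p = 0.00735). Both calls were lost without s29, s30, s32 and s33, where Deptor was at -0.19 (adjusted p = 0.424) and Prkag2 at -0.56 (adjusted p = 0.101). Against shChREBP/L-G6pc+/+ livers 4 of the 17 (23.5%, against 6.14%) rose in livers with both changes and 0 fell. They were Mtor (adjusted p = 0.0015), Prkab2 (0.0108), Eif4ebp1 (0.0348) and Prkaa2 (0.0412), and without the 4 libraries only Mtor and Prkaa2 passed. Against shSCR/L-G6pc+/+ livers 1, Mtor, rose and 1, Prkag2, fell, and neither call held without them.

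Of 28 lysosomal hydrolases and membrane proteins known as MiT/TFE targets, 2 (7.14%, against 2.20% of all genes) rose with G6pc deficiency under shSCR. They were Gusb (beta-glucuronidase, log2 0.63, adjusted p = 0.00276) and Ctsd (cathepsin D, log2 0.40, adjusted p = 0.0271), and the list had a median of 0.10 beside 0.00 for all genes. With shChREBP in L-G6pc-/- livers 4 (14.3%, against 3.33%) rose, Hexa, Ctsz, Ctsa and Cd63, with log2 fold changes of 0.40 to 0.82, and 0 passed without the 4 libraries. In livers with both changes 8 (28.6%, against 6.87%) rose and 0 fell against shSCR/L-G6pc+/+ livers, with a median of 0.22 beside 0.01, and 1, Ctsz, rose without the 4 libraries. Against shChREBP/L-G6pc+/+ livers 5 rose and 1, Lamp2, fell (log2 -0.31, adjusted p = 0.00616), where 6.14% of all genes were called higher and 4.90% lower. There 3 rose and 1 fell without the 4 libraries. With shChREBP in L-G6pc+/+ livers 2 rose, Lamp2 and Hexa, and Glb1 fell. Of 24 autophagy genes 1 (4.17%, against 2.20%) rose with G6pc deficiency under shSCR. It was Ulk1, the kinase that starts autophagosome formation, at 377 CPM in shSCR/L-G6pc-/- livers against 229 CPM in shSCR/L-G6pc+/+ livers (log2 0.72, adjusted p = 0.0261). Map1lc3a fell and Optn rose in livers with both changes against both L-G6pc+/+ groups. Against shSCR/L-G6pc+/+ livers Wipi1 fell too (log2 -0.58, adjusted p = 0.00918). There 1 of the 24 rose and 2 fell, where 6.87% of all genes were called higher and 6.37% lower. Without the 4 libraries the calls of Map1lc3a and Optn held and that of Wipi1 was lost (adjusted p = 0.1485).

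Of 15 V-ATPase genes, which encode the lysosomal proton pump, 1, Atp6v0e, fell with shChREBP in L-G6pc-/- livers (log2 -0.37, adjusted p = 0.0403). In livers with both changes 3 (20%, against 6.14% of all genes) rose and 0 fell against shChREBP/L-G6pc+/+ livers. They were Atp6v1b2, Atp6ap2 and Atp6v1a, with log2 fold changes of 0.31 to 0.48. Without the 4 libraries the call of Atp6v1a was lost (adjusted p = 0.0613), and Atp6v0a1 was called lower (log2 -0.54, adjusted p = 0.0295). Against shSCR/L-G6pc+/+ livers 2 rose and 0 fell, Atp6v1d (log2 0.40) and Atp6v1a (log2 0.29), and both calls were lost without the 4 libraries. Among 8 metabolic targets of the family 1 rose with G6pc deficiency under shSCR, Ppargc1a, a coactivator of mitochondrial genes (78.2 against 33.8 CPM, log2 1.22, adjusted p = 0.0301). In livers with both changes 2 of the 8 rose and 2 fell against shSCR/L-G6pc+/+ livers. Fgf21, a fasting hormone, was 2.39 higher (15.6 against 2.96 CPM, adjusted p = 0.000196) and Irs2, an adaptor of the insulin receptor, 1.24 higher (adjusted p = 0.0262). Ppara, a nuclear receptor of fatty acid oxidation (log2 -0.62, adjusted p = 0.00205), and Insig1, an inhibitor of sterol synthesis (log2 -0.62, adjusted p = 0.0418), fell. Without the 4 libraries Fgf21 and Irs2 passed (adjusted p = 0.00756 and 0.0469) and Ppara and Insig1 did not (adjusted p = 0.0779 and 0.365).

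Of 9 tested genes of the KEAP1-NRF2 system, to which p62 is tied, 5 (55.6%, against 3.33% of all genes) rose with shChREBP in L-G6pc-/- livers, with a list median of 0.71 beside 0.01 for all genes. Srxn1, which restores oxidized peroxiredoxins, averaged 791 CPM in shChREBP/L-G6pc-/- livers, against 131 CPM in shChREBP/L-G6pc+/+ livers, 185 CPM in shSCR/L-G6pc-/- livers and 162 CPM in shSCR/L-G6pc+/+ livers. It was 2.10 higher on the log2 scale with shChREBP among L-G6pc-/- livers (adjusted p = 6.95e-05), and its shChREBP effect was 2.41 higher in L-G6pc-/- than in L-G6pc+/+ livers (adjusted p = 0.0181). With s29, s30, s32 and s33 left out the 5 calls became 1, Srxn1, at 0.82 (adjusted p = 0.0167), and the difference between the genotypes became 1.13 (adjusted p = 0.0272). Nfe2l2, the gene of NRF2, was 0.49 higher with G6pc deficiency under shSCR (87.8 against 62.2 CPM, adjusted p = 0.0106).

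The genes whose log2 CPM ran most like 4 of the 10 over the 33 libraries were ranked by Pearson r among those with a mean of at least 5 CPM and no predicted-gene name, as a description with no test. All libraries share the depth and group structure that can move genes together. For Tfe3 they were Epn2 (r = 0.85), Cpsf1 (0.83) and Npc2 (0.81), a lysosomal cholesterol carrier, and r was 0.80, 0.76 and 0.82 once the group means were taken out, with Spearman rho of 0.79, 0.72 and 0.80. For Sqstm1 they were Gstm4 (0.84), a glutathione transferase gene, Entpd5 (0.82) and Lgals3bp (0.82), at 0.60, 0.40 and 0.65 without the 4 libraries that stood apart, with rho of 0.80, 0.67 and 0.74 over all. For Gpnmb they were the collagen gene Col1a2 (0.81), Mmp12 (0.79) and the collagen gene Col1a1 (0.77), at 0.79, 0.72 and 0.68 without those libraries, with rho of 0.76, 0.68 and 0.66 over all. For Rragd, with its 1 to 11 counts, they were Nars (0.72), Nemf (0.70) and Coa3 (0.69), with rho of 0.66, 0.61 and 0.64.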

How the data were processed

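RNA from livers of male mice was sequenced as 3′ QuantSeq libraries. Per the labels and the study's methods, the authors mapped the reads on GRCm38 (HISAT), counted with HTSeq-count and deposited raw counts per gene for 33 libraries. They also deposited a normalized table of linear values (a signal, the count plus 0.5 scaled by a constant for each library) for 11125 genes, used here only in an alternative. Tool versions are not given in the sources used here, nor is whether counting used strand. Groups came from the sample titles.

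The counts were analysed with edgeR 4.0.16 in R 4.3.3 with TMM factors, filterByExpr (minimum count 10, minimum total 15) and quasi-likelihood tests, two-sided, over all 4 groups in a single fit, with Benjamini-Hochberg adjustment over 10179 genes. Alternatives were DESeq2 1.42.0, limma 3.58.1 (voom, and on the deposited values), RLE factors, library size only, no filter, the compared groups only, leaving out Gm42418, and leaving out libraries. CPM were computed with the TMM-scaled totals of the genes tested. No 2 libraries of a group were alike within sampling noise (chi-square per degree of freedom at least 4.05). On simulated counts the edgeR fit recovered 41.9% of 1.5-fold and 81.6% of 2-fold changes for G6pc deficiency under shSCR.

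The 10 genes, the lists of pathway and marker genes and the named-gene rule were chosen with earlier results of these data known. Named genes were the 10, up to 4 passing genes with the smallest p for each pathway list and comparison, the 3 genes most like each of Tfe3, Rragd, Sqstm1 and Gpnmb, and Mlxipl, Pklr and G6pc. Of the marker lists for other cells, summed levels stayed within 0 to 5.63 CPM for T cells and B cells, 3.33 to 11.8 CPM for mast cells and 33.3 to 240.0 CPM for neutrophils, and stellate, sinusoidal and cholangiocyte markers were counted in every group. Coordinates of genes are from GENCODE M21 on GRCm38, the build of the counts. Protein sequences were not used here.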

Additional observations from a re-analysis of the deposited data

Results flagged for a closer look

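In 4 cases a value lay far from the other libraries of their group, by the gap to the nearest library relative to the range of the group, out of 40 groups of values tested, of which chance flags about 1 in 20. Tfe3 was at 53.6 CPM in the shSCR/L-G6pc+/+ library s1, where the other 7 had 27.99 to 38.7 CPM. Tfeb was at 22.3 CPM in the shSCR/L-G6pc+/+ library s8, where the others had 7.92 to 14.5 CPM. Mitf was at 13.4 CPM in the shSCR/L-G6pc-/- library s24, where the others had 4.40 to 8.66 CPM. Gpnmb was at 45.9 CPM in the shSCR/L-G6pc-/- library s20, where the others had 0 to 4.66 CPM.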

How the results depend on the processing

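The number of the 9 genes called was 1 with G6pc deficiency under shSCR and became 2 by limma-voom and 2 without s29, s30, s32 and s33. It was 1 with shChREBP in L-G6pc-/- livers and became 3 with library size only and 0 without those 4 libraries. It was 2 with G6pc deficiency under shChREBP and became 1 by limma-voom, 1 on the deposited values and 1, Tfeb, without the 4. It was 3 for both changes against neither and became 1 without a low-count filter and 0 without the 4. Sqstm1 between the genotypes under shChREBP reversed to -0.010 without the 4. The cause was not tested. With 1 library left out at a time the counts ranged over 1 to 2 with G6pc deficiency under shSCR, 0 to 1 with shChREBP in L-G6pc+/+ livers, 1 to 2 with shChREBP in L-G6pc-/- livers, 1 to 3 with G6pc deficiency under shChREBP, 1 to 3 for both changes against neither, and 0 to 0 for the difference between shChREBP effects.

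Over all genes, calls for that difference were 8 and became 79 by DESeq2, 33 with library size only, 4 by limma-voom, 3 on the deposited values, 37 without the 4 libraries and 19 without s9 and s13. Calls fell to 106 against 770 for shChREBP in L-G6pc-/- livers and to 321 against 1347 for both changes against neither once the 4 were left out. Library size only moved the median log2 fold change of all genes to 0.11 against 0.01 for shChREBP in L-G6pc-/- livers, and the share of calls that were higher to 75.8% against 44.0%. For G6pc deficiency under shChREBP that share became 74.0% against 55.6%, for both changes against neither 68.2% against 51.9%, for G6pc deficiency under shSCR 57.6% against 68.1% and for the difference 90.9% against 75.0%, and RLE factors moved the last to 85.7%. Relative to the shift of 0.11, Tfe3 stayed higher.

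No paired analysis was possible because no replicate number is shared between groups. Rragd and Mitf, at 1 to 11 and 7 to 40 counts a library, are limited by depth.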
